A study of Rattus norvegicus with 96 samples.

Results

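Blood of rats taken 4 weeks after a 5-day inhalation of crystalline silica was set directly against blood of rats taken at week 0 of the same exposure. The rule was the sample labels alone: 8 samples of silica rats at week 4 and 8 of silica rats at week 0, or 16 of the 96 samples in the series. Each sample was the blood of a different rat, so the comparison is between rats killed at different times and not within a rat.

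Total RNA of rat blood was hybridised to Illumina bead arrays in a study that sought a blood gene signature of silica exposure. All rats were male Fisher 344 (written CDF Fisher 344 in the labels) and are labelled as 3 months old at every time point. The silica rats of both weeks breathed 15 mg/m3 crystalline silica for 6 hours a day on 5 days. Air rats of the same series, 4 at week 4 and 4 at week 0, breathed air and give the change between the 2 weeks without silica. Globin messenger RNA was removed from every sample before labelling, which bears on the red-cell results below. Week in this design also marks the date of killing, the age reached and the handling since exposure, and these cannot be told apart from the time since silica.

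Crystalline silica reaches the alveoli as fine particles, is taken up by macrophages there and is a known cause of lung inflammation and fibrosis. Blood holds circulating leukocytes, platelets and red cells, and young red cells (reticulocytes) still carry RNA left from their precursors. Interferons switch on a set of antiviral genes in most leukocytes, and class II major histocompatibility complex (MHC) molecules present antigen on B cells, monocytes and dendritic cells. In whole blood, fewer cells of a type and less of an RNA in each such cell cannot be told apart.

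Values below are log2 intensities after background correction and quantile normalization, with a median of 6.02 and a highest value of 14.85, and a difference of 1 on this scale is a 2-fold difference in signal. A gene is called when its limma adjusted p (Benjamini-Hochberg over 12289 genes) is under 0.05. The arrays carried blood: 5 of 6 neutrophil markers, 4 of 5 T cell markers, 4 of 5 natural killer (NK) cell markers and 5 of 5 erythroid markers were detected on all 8 arrays of each week, and none of 4 lung epithelial markers passed the detection filter. So were 2 of 4 monocyte, 3 of 4 B cell and 3 of 5 platelet markers. Of 4 eosinophil and basophil markers 1 was detected on all 8 arrays at week 4 and 2 at week 0. Of 3 liver markers 2 passed the filter, and none was detected on all 8 arrays of either week. Detected rows per array numbered 8095 to 9452 in silica week 4 rats and 9186 to 9970 in silica week 0 rats, and the mean difference of -607 rows had p = 0.0106 (two-sided exact permutation test, n = 8 each). Silica week 4 rats 4 and 7 were under 8500 rows, and so was air week 4 rat 1. In the air rats the week 4 mean was lower by 771 rows than the week 0 mean (two-sided exact permutation p = 0.0571, smallest possible 0.0286). The array of each silica week 4 rat stood in the deposited table in the same run of 12 neighbouring columns as the array of 1 silica week 0 rat, which gives 8 within-run differences. The labels give no chip, and the runs serve here only as a stand-in for one. Within runs, detected rows were lower at week 4 in 8 of 8 silica pairs, with differences of -1142 to -312 rows (two-sided exact sign-flip test, added after seeing the data, p = 0.00781, the smallest it can give), and in 4 of 4 air pairs (exact p = 0.125, also the smallest). Arrays of the same run deviated together, with r of 0.159 to 0.282 in the 8 silica pairs.

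Between week 4 and week 0, 3045 of the 12289 genes were called in the silica rats: 1354 were higher at week 4 (11.0% of the genes tested) and 1691 were lower (13.8%). At an unadjusted p under 0.05 there were 4354 genes, where 614 would be reached by chance. The changes were mostly small. The median standard error of a difference was 0.0812, 290 called genes were at least 1.5-fold higher and 34 at least 1.5-fold lower at week 4, and 21 and 2 of these passed 2-fold. Every silica week 4 rat lay above every silica week 0 rat for 312 genes (2.54%) and below every one for 120 genes (0.976%). In all 8 column runs the week 4 rat was the higher for 897 genes (7.30%) and the lower for 871 genes (7.09%). Over all 12289 genes, the changes in column runs 1 to 4 and in runs 5 to 8, which hold different rats, had r = 0.711 and rho = 0.613 across genes. With the runs as a fixed block 1581 genes were higher and 1994 lower. The split into higher and lower depended on the scaling. With arrays centred on their medians in place of quantile normalization, the median difference of all genes was -0.147 (against -0.0184), and 278 genes were higher and 2839 lower, so that 8.92% of the called genes were higher at week 4 in place of 44.5%.

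The air rats changed in the same direction as the silica rats for most of these genes. They share no rat with the silica comparison. Between air week 4 and air week 0, 887 genes were higher (7.22%) and 738 lower (6.01%). With median centring they were 10 and 14, and the shares of genes called in both comparisons rest on the quantile-normalized counts. They also depended on single rats: 521 and 308 were left without air week 4 rat 1, 388 lower without air week 0 rat 1, 482 lower without air week 0 rat 3, and 164 and 109 when only the arrays compared were fitted. Of the 1354 genes higher in silica rats 652 (48.2%) were also called higher in air rats, and these are 73.5% of the genes higher in air. Of the 1691 lower genes 525 (31% of them, and 71.1% of those lower in air) were also called lower in air. No gene was called in opposite directions. Among the genes called in silica rats, 94.4% of the higher and 94.3% of the lower ones had the same sign in air rats. The median change of the higher set was 0.392 in silica rats and 0.339 in air rats, and that of the lower set was -0.293 in silica rats and -0.247 in air rats. Across genes, the 2 changes had Pearson's r = 0.744 and Spearman's rho = 0.67, and r was 0.734 for the silica rats of column runs 5 to 8, which hold none of these air rats. Genes are not independent replicates, so no p is given for these values.

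**Figure D1:**
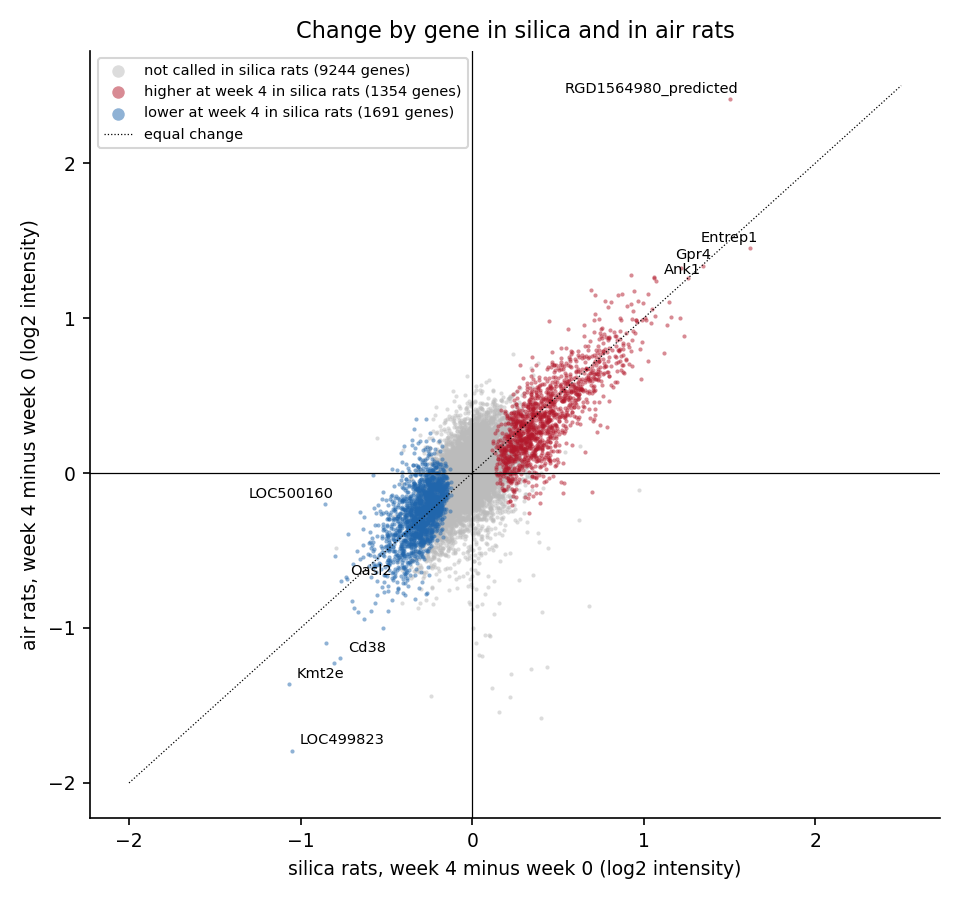
Each point is a gene, with its week 4 minus week 0 difference in silica rats (8 against 8) across and in air rats (4 against 4) upward, in log2 intensity. The 1354 genes called higher and the 1691 called lower in silica rats lie mostly on the same side of 0 in air rats, near the dotted line of equal change.

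The test of whether silica rats changed differently from air rats called 1 gene of 12289 (0.00814%), lower in silica, and none higher. At an unadjusted p under 0.05 this test held 712 genes, where chance gives 614. Its median standard error was 0.141, so that it could miss a difference of the size of most changes described here, and a gene not called by it is not shown to change alike. The called gene was RT1-CE11, a class I MHC gene of the rat. It read 4.96, 5.14 and 5.32 (lowest, median and highest) in silica week 4 rats and 4.94, 5.22 and 5.32 in silica week 0 rats, while air rats read 6.32, 5.32, 5.49 and 5.63 at week 4 and 5.34, 5.15, 5.18 and 5.08 at week 0. The silica ranges overlapped at the edge of detection: 0 of 8 arrays detected the gene at week 4 and 6 of 8 at week 0, and the silica change was not called (adjusted p = 0.354). Of the air week 4 rats, rat 1 stood alone at 6.32. The silica change minus the air change was -0.59 ± 0.12 (SE, adjusted p = 0.0366). This call was lost under 9 alternative settings and in 13 of 24 fits with 1 rat removed, over which the value ran between -0.715 and -0.382. The value nearest 0 came without air week 4 rat 1 (adjusted p = 0.499). The next 5 genes by p all had an adjusted p of 0.341. They were C3ar1, the receptor of the complement fragment C3a (-0.51 ± 0.12), Lancl2 (-0.51 ± 0.125), Clba1 (-0.50 ± 0.12), Hspa13, an HSP70-family chaperone (-0.62 ± 0.16), and Sbspon. Sbspon was not well above background on any silica week 4 array and was detected on 3 of 8 at week 0, and C3ar1 was detected on 1 of 8 at week 4 and 4 of 8 at week 0. In each of the 6 the air mean was higher at week 4 than at week 0. Silica rats against air rats within a week gave 15 genes at week 4 (2 higher, 0.0163%, and 13 lower, 0.106%) and 2 at week 0 (both higher, 0.0163%).

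The gene with the largest rise was Entrep1, an endosomal membrane protein that interacts with epsin. It read 7.58, 8.08 and 8.34 (lowest, median, highest) in silica week 4 rats and 6.14, 6.35 and 6.85 in silica week 0 rats. The 2 groups did not overlap, and the difference was 1.62 ± 0.12 (SE, n = 8 each, adjusted p = 2.4e-19), a 3.07-fold rise. In air rats it read 8.16, 8.19, 7.62 and 7.76 at week 4 and 6.33, 6.91, 6.41 and 6.27 at week 0, a rise of 1.45 (adjusted p = 2.24e-09). Its silica means over weeks 0, 1, 2, 4, 8 and 16 were 6.43, 6.76, 6.98, 8.05, 7.44 and 7.79, with week 4 the highest of the 6, and its air means were 6.48, 6.64, 7.11, 7.93, 7.46 and 8.00.

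RGD1564980_predicted, a predicted gene, followed with a rise of 1.504 ± 0.223 (adjusted p = 1.1e-07), but its week 0 rats fell apart into separate levels. The silica week 4 rats read 10.2, 10.4 and 10.6 (lowest, median, highest), and the silica week 0 rats read 7.59, 8.57 and 10.4. Rats 1, 2 and 8 of week 0 stood at 10.4, 10.2 and 10.4, inside the week 4 range, and the 5 others were at or under 8.95. Of the air week 0 rats, rat 2 stood at 9.57 and the highest of the others at 7.63, against 10.1 to 10.6 at air week 4. At weeks 1 and 2 the silica means were 8.05 and 8.29, with SDs of 0.261 and 0.196.

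Gpr4, a proton-sensing G protein-coupled receptor, read 8.33, 8.72 and 9.04 in silica week 4 rats and 6.90, 7.29 and 7.81 in week 0 rats, a rise of 1.34 ± 0.15 (adjusted p = 3.99e-11). Mast2, a microtubule-associated kinase, read 8.39, 8.80 and 9.23 at week 4 and 7.15, 7.67 and 7.92 at week 0, a rise of 1.26 ± 0.12 (adjusted p = 3.65e-13). Neither gene's groups overlapped. The other 8 of the 12 largest rises lay between 1.07 and 1.24. They were Gstm5, a mu-class glutathione S-transferase, Tmem184a, Kifap3, the non-motor subunit of kinesin-2, Mrpl37 of the large mitochondrial ribosomal subunit, Dctpp1, a dCTP pyrophosphatase, Clic2 of the chloride intracellular channel family, RGD1561325_predicted, and Ank1, the ankyrin that ties spectrin to the red-cell membrane. Of the 12, 10 had groups that did not overlap, and all 12 were also called higher in air rats.

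**Figure D2:**
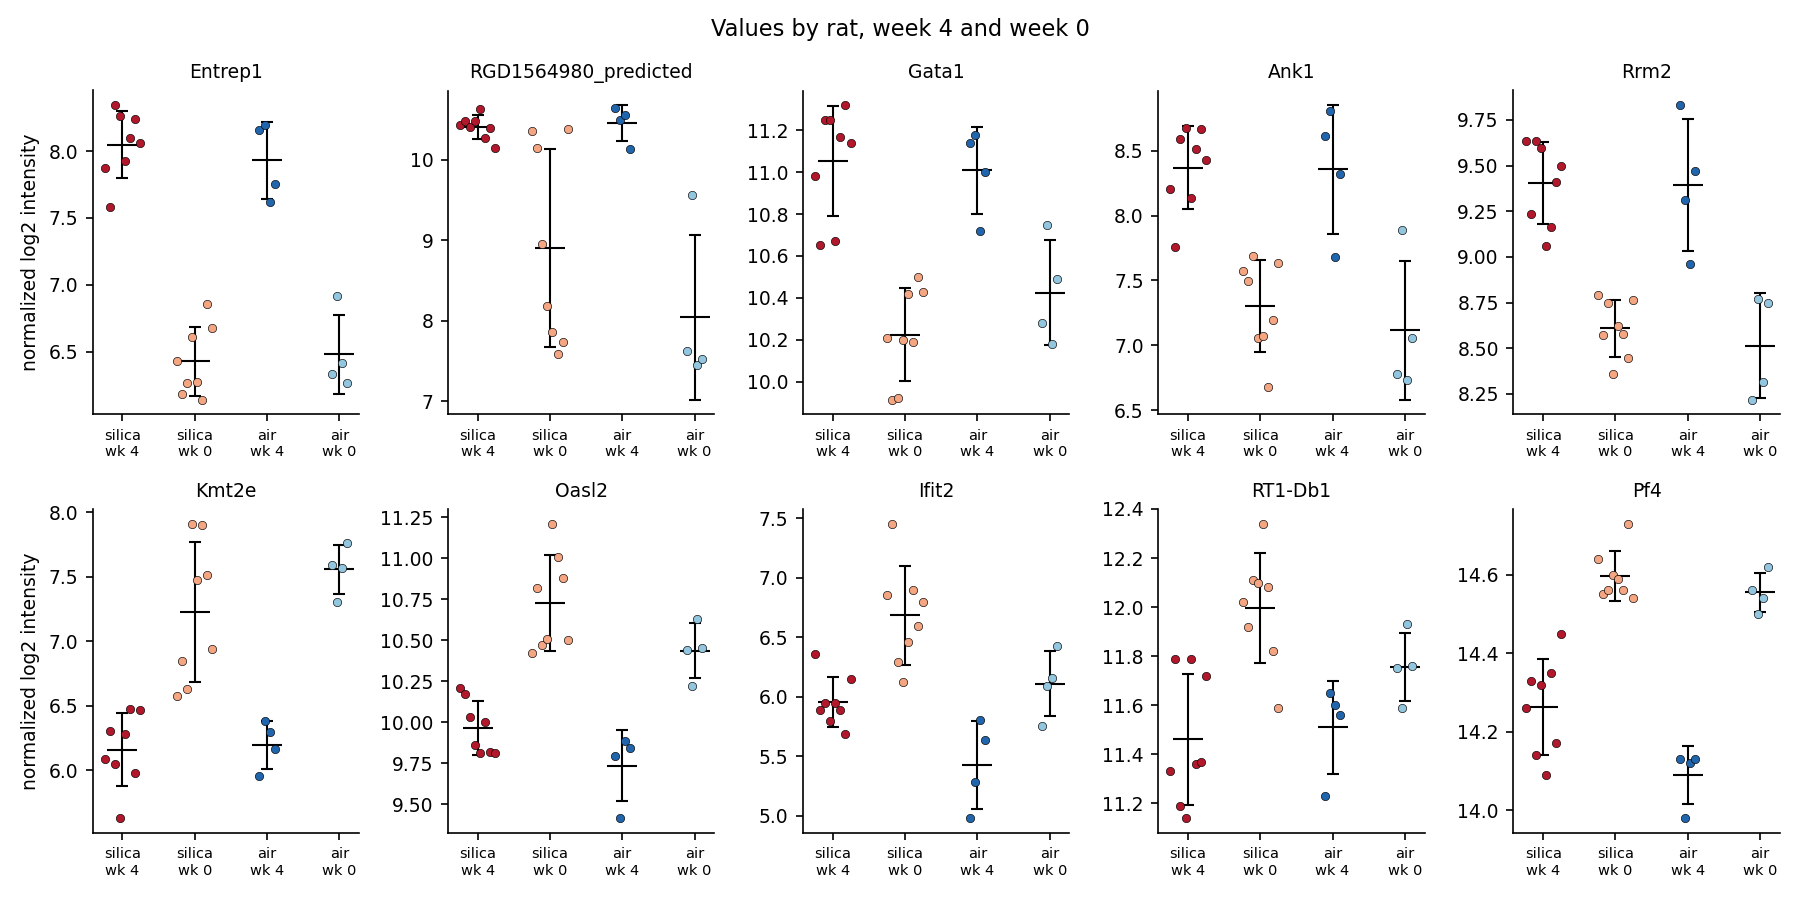
Normalized log2 intensity of 10 genes in each rat (points), with the mean and SD (bars), for silica week 4, silica week 0, air week 4 and air week 0. Entrep1, Gata1, Ank1 and Rrm2 stand higher at week 4 than at week 0 in silica rats with no overlap, Kmt2e, Oasl2 and Pf4 stand lower with no overlap, and 3 week 0 silica rats of RGD1564980_predicted lie at the week 4 level.

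The largest fall was of Kmt2e, a chromatin regulator of the MLL family with a SET domain. It read 5.63, 6.18 and 6.47 (lowest, median, highest) in silica week 4 rats and 6.58, 7.21 and 7.91 in silica week 0 rats. The groups did not overlap, and the difference was -1.07 ± 0.14 (adjusted p = 5.49e-09). In air rats the change was -1.36 (adjusted p = 1.19e-06). Its silica means over weeks 0, 1, 2, 4, 8 and 16 were 7.23, 6.61, 6.89, 6.16, 6.82 and 6.23.

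The other 11 of the 12 largest falls lay between -1.05 and -0.70. LOC499823 changed by -1.05 ± 0.26 (adjusted p = 0.001) with overlapping groups, reading 5.04 to 7.47 at week 4 and 5.75 to 7.98 at week 0. LOC500160 changed by -0.86 ± 0.24 (adjusted p = 0.0044), and its groups overlapped too. Its call was lost when only the 16 arrays compared were fitted (adjusted p = 0.0578) and without the arrays of under 8500 detected rows (0.0535). Sv2b, a synaptic vesicle glycoprotein, LOC498010, Cd38, an ectoenzyme that hydrolyses NAD, and S100a11, a calcium-binding protein, changed by -0.85, -0.80, -0.77 and -0.74. S100a11 read 11.4, 11.6 and 11.8 (lowest, median, highest) in silica week 4 rats and 11.9, 12.3 and 12.8 in week 0 rats, with no overlap. Rnase2, a ribonuclease of eosinophil granules in other species, changed by -0.70, and RGD1560283_predicted by -0.80. The remaining 3 were the interferon-stimulated genes Oasl2, Ifit2 and Mx2. Of the 12 largest falls 4 had groups that did not overlap, and 9 were also called lower in air rats, the others being LOC500160, RGD1560283_predicted and Mx2.

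Gene lists are described by how many of their measured members were called, to be read against the 11.0% higher and 13.8% lower over all genes and against a median difference of -0.0184. Counts in air rats, from 4 rats against 4, are to be read against 7.22% higher and 6.01% lower over all genes. The erythroid list rose: 14 of its 27 measured genes (51.9%) were higher at week 4 and none lower, with a median difference of 0.195. Averaged within each rat, the list stood at 11.4 to 11.8 in silica week 4 rats and 11.2 to 11.4 in silica week 0 rats. The lowest week 4 rat, at 11.44, stood above the highest week 0 rat, at 11.40. With median centring 6 genes were called higher and none lower, and the list's median stood 0.293 above that of all genes, against 0.213 in quantile-normalized values. Without the arrays of under 8500 detected rows 14 were still called.

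The erythroid genes that rose included transcription factors and proteins of the red-cell membrane. Kel, the Kell blood group protein, read 11.5, 11.7 and 11.8 (lowest, median, highest) in silica week 4 rats and 10.9, 11.1 and 11.4 in silica week 0 rats, a rise of 0.60 ± 0.07 (adjusted p = 7.69e-11). Gata1, the transcription factor that directs erythroid differentiation, read 10.7, 11.2 and 11.3 at week 4 and 9.91, 10.2 and 10.5 at week 0, a rise of 0.83 ± 0.11 (adjusted p = 8.62e-09). Ank1 rose by 1.07 ± 0.15 (adjusted p = 1.55e-08). For these 3 the groups did not overlap. Blvrb, a biliverdin reductase, rose by 0.46 ± 0.06 (adjusted p = 2.9e-08), reading 12.2 to 12.5 at week 4 and 11.8 to 12.3 at week 0. The other called members were Tfrc, the transferrin receptor, Gypc, Sptb, Epb42, Rhd and Slc4a1 of the membrane and its skeleton, the transcription factor Klf1, Hemgn, Trim10 and Bnip3l, which clears mitochondria from maturing red cells. Among the markers not called were Alas2, the first enzyme of haem synthesis (0.08, adjusted p = 0.412), and the globins Hbb (0.00163, adjusted p = 0.991) and Hba-a1 (-0.00398, adjusted p = 0.97). These 3 averaged 14.2 to 14.7 at week 4, close to the top of the scale, and globin RNA had been depleted. In air rats 9 of the 27 genes were higher and none lower, with a median of 0.236, and none of the 27 was called in the test of silica against air change.

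The cell cycle list held 10 higher genes of 33 (30.3%) and 3 lower (9.09%), with a median difference of 0.00119. Rrm2, the small subunit of ribonucleotide reductase, read 9.06, 9.45 and 9.64 (lowest, median, highest) in silica week 4 rats and 8.36, 8.60 and 8.79 in silica week 0 rats, a rise of 0.79 ± 0.105 (SE, adjusted p = 4.28e-09) with no overlap. Cdc20, an activator of the anaphase-promoting complex, rose by 0.96 ± 0.17 (adjusted p = 4.23e-06), Tpx2, a spindle assembly factor, by 0.70 ± 0.11 (8.03e-07), and Ccnb2, a mitotic cyclin, by 0.58 ± 0.11 (2.24e-05). Bub1, Mki67, Tyms, Aurka, Prc1 and Ube2c were the other higher members, and Hmgb2, Mcm3 and Stmn1 were the lower ones. Median centring called 4 higher and 6 lower, while the list's median minus that of all genes was 0.0196, and 0.043 with median centring. In air rats 9 of the 33 were higher and none lower.

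The mitochondrial respiratory chain list held 20 higher genes of 56 (35.7%) and 5 lower (8.93%). Ndufa12, a subunit of complex I, read 11.9, 11.9 and 12.1 (lowest, median, highest) in silica week 4 rats and 10.8, 11.1 and 11.4 in silica week 0 rats, a rise of 0.82 ± 0.08 (adjusted p = 1.91e-13) with no overlap. Ndufa11, Ndufb8 and Ndufb2, of the same complex, rose by 0.66, 0.60 and 0.49. The 5 lower members were Sdha, Sdhb and Sdhd of complex II and Atp5f1a and Atp5mc2 of the ATP synthase, by -0.29, -0.21, -0.30, -0.33 and -0.37; they fall outside the naming rule and are listed to complete the count. The list's median minus that of all genes was 0.0698, and with median centring it was -0.00892, with 2 genes higher and 7 lower. In air rats 9 were higher and 4 lower.

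**Figure D3:**
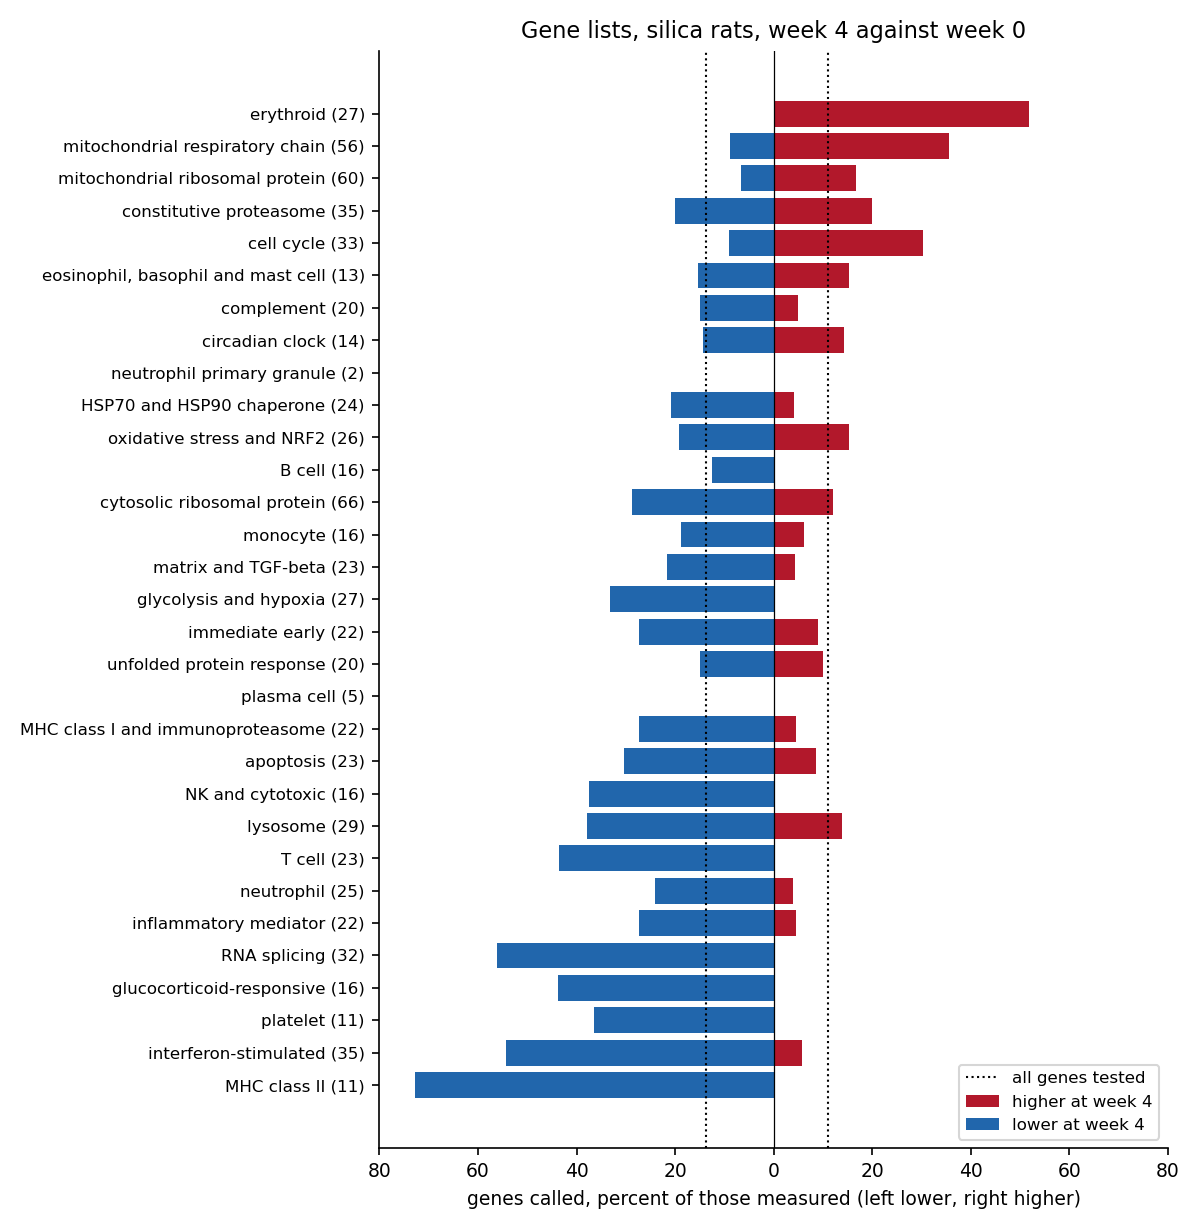
For each of 31 gene lists, ordered from the highest to the lowest median difference, bars give the percent of its measured genes (number in brackets) called higher (right) and lower (left) in silica rats at week 4 against week 0. Dotted lines mark the 11.0% and 13.8% of all genes tested. Erythroid genes reach 51.9% higher, and MHC class II, RNA splicing and interferon-stimulated genes reach 72.7%, 56.2% and 54.3% lower.

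The interferon-stimulated list fell: 19 of 35 measured genes (54.3%) were lower at week 4 and 2 (5.71%) higher, with a median difference of -0.312. Averaged within each rat, the list stood at 7.80 to 8.24 in silica week 4 rats and 8.02 to 8.69 in silica week 0 rats, so that the groups overlapped. Oasl2, a 2'-5'-oligoadenylate synthetase-like antiviral protein, read 9.81, 9.93 and 10.2 (lowest, median, highest) at week 4 and 10.4, 10.7 and 11.2 at week 0, a change of -0.76 ± 0.11 (adjusted p = 8.43e-08) with no overlap. Ifit2, which binds viral RNA, read 5.69, 5.92 and 6.36 at week 4 and 6.13, 6.70 and 7.46 at week 0, a change of -0.73 ± 0.15 (adjusted p = 0.000163). Cxcl10, a chemokine that attracts activated T cells, changed by -0.53 ± 0.09 (adjusted p = 2.72e-06), but it was detected on 1 of 8 arrays at week 4 and on 7 of 8 at week 0. Mx2, an interferon-induced GTPase, changed by -0.72 ± 0.17 (adjusted p = 0.000455).

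Among the other lower members were the signal transducer Stat2, the RNA sensors Ifih1 and Dhx58, Mx1, Usp18, Sp110, Ifitm3, Parp14, Gbp2, Gbp5, Ifi44l, Oasl, Ifit3 and Oas1a. The 2 higher ones were Cmpk2, a mitochondrial nucleotide kinase (0.39 ± 0.08, adjusted p = 0.000178), and Isg20, an exonuclease, which is named to complete the count (0.35, adjusted p = 0.000228). The fall was smaller with the stock background estimate of limma, at a median of -0.0905 with 18 genes lower. The median of all genes was then -0.00302 in place of -0.0184. With detected rows as a covariate 11 genes of the list were lower in place of 19, and over all genes 906 in place of 1691. In air rats, 4 against 4, 4 of the 35 genes were lower and 2 higher, with a median of -0.12. Over all genes 6.01% were called lower in air rats and 13.8% in silica rats. The median standard error of a difference was 0.115 in air rats and 0.0812 in silica rats, so the 2 counts are not on the same footing. Silica rats averaged 8.33 at week 0 and air rats 8.18, and over weeks 0, 1, 2, 4, 8 and 16 the silica means were 8.33, 8.12, 8.03, 8.07, 8.16 and 8.21. No interferon-stimulated gene was called in the test of silica against air change.

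Interferon-stimulated genes are known to carry an interferon-stimulated response element, here searched as a pair of GAAA half-sites with any 2 bases between them, on both strands, in the 300 bases from 250 before to 50 after the start of each gene (RefSeq, GRCr8). Of the 19 lower members 14 had a promoter in the table, and 11 of these (78.6%) held the letters. So did 6 of the 10 members with a promoter that were not called, 1 of the 2 higher ones, and 3.19% of the 8507 tested genes with a promoter. The match describes the sequence only. The promoters of 4 lower members are shown in the gene's own direction, with the matched letters in capitals, to set the element beside the genes that fell. Those of Oasl2 (chr12:47383136-47383435, minus strand), Ifit3 (chr1:241527076-241527375, plus strand), Oas1a (chr12:41330216-41330515, plus strand, with 2 overlapping matches) and Ifih1 (chr3:67683919-67684218, minus strand) follow.
Oasl2: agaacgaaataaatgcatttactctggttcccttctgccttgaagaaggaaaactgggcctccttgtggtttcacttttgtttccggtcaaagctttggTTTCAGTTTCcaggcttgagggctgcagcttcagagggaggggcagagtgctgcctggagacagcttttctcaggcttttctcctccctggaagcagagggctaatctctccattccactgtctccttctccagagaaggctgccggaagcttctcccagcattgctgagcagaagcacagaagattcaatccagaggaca
Ifit3: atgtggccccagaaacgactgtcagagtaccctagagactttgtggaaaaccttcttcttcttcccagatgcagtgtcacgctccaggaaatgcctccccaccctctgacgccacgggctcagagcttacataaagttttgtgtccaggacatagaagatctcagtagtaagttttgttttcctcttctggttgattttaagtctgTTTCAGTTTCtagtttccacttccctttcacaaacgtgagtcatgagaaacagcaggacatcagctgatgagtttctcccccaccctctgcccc
Oas1a: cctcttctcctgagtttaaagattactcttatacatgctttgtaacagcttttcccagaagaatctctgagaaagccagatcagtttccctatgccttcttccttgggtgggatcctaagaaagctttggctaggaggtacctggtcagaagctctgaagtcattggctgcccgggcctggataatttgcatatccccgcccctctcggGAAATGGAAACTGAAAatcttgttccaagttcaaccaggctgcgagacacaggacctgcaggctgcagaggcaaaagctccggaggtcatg
Ifih1: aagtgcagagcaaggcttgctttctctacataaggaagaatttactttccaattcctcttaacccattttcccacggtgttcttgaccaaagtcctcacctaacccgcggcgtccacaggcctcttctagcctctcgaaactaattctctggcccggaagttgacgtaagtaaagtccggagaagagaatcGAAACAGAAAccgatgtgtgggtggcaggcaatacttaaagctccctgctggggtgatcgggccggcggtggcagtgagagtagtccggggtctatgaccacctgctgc

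In Oasl2 and Ifit3 the letters lie on the opposite strand and read as TTTC half-sites as printed. Ifit3 and Oas1a, whose promoters are shown, changed by -0.42 (adjusted p = 0.0244) and -0.37 (0.0414), and Ifih1, which senses double-stranded RNA, by -0.64 (0.0014).

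Of 11 measured MHC class II genes 8 (72.7%) were lower at week 4 and none higher, with a median difference of -0.345. Averaged within each rat, the list stood at 9.04 to 9.38 in silica week 4 rats and 9.41 to 9.80 in silica week 0 rats, with no overlap. RT1-Db1, a class II beta chain of the rat, read 11.1, 11.4 and 11.8 (lowest, median, highest) at week 4 and 11.6, 12.1 and 12.3 at week 0, a change of -0.53 ± 0.10 (adjusted p = 1.15e-05). RT1-Ba, a class II alpha chain, changed by -0.49 ± 0.10 (adjusted p = 5.72e-05), RT1-DOb by -0.49 and RT1-Da by -0.33. The other called members were Cd74, the invariant chain, Ciita, the transactivator of class II genes, RT1-DMa, which helps to load peptide, and the protease Ctss. In air rats 3 of the 11 were lower (median -0.232). Over weeks 0, 1, 2, 4, 8 and 16 the silica means of the list were 9.59, 9.41, 9.56, 9.26, 9.30 and 9.12, and week 16 was lower than week 4. Of the 22 class I and immunoproteasome genes 6 were lower and 1 higher, led by Psme2, an activator subunit of the immunoproteasome (-0.37 ± 0.08, adjusted p = 8.26e-05), and the antigen peptide transporter Tap1 changed by -0.47 ± 0.12 (adjusted p = 0.00218).

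Every called gene of the T cell and NK lists was lower at week 4. Of 23 T cell genes 10 (43.5%) were lower and none higher, with a median of -0.168. Lef1, a transcription factor of T cells, changed by -0.51 ± 0.12 (adjusted p = 0.000723), Cd4, the co-receptor for class II MHC, by -0.53 ± 0.13 (0.00142), and Cd3g, a chain of the T cell receptor complex, by -0.30 ± 0.08 (0.00217). Of 16 NK and cytotoxic genes 6 (37.5%) were lower and none higher, among them Ccl5, a chemokine (-0.33 ± 0.09, adjusted p = 0.00265), and Prf1, perforin (-0.41 ± 0.12, adjusted p = 0.00966). Without the 3 arrays of under 8500 detected rows, 6 T cell genes and 1 NK gene were lower. With detected rows as a covariate, 6 T cell genes were lower with a median of -0.0623, and 2 NK genes. Over all genes the lower calls were 1038 and 906 in these settings, in place of 1691. Of 16 B cell genes 2 (12.5%) were lower and none higher, a share close to the 13.8% of all genes. Of 5 plasma cell genes none was called by limma (lowest adjusted p 0.11). Cd37 (-0.36, adjusted p = 0.00275) and Fcer2 (-0.36, adjusted p = 0.0215) were the B cell members. With detected rows as a covariate neither was called, and the list's median was -0.0188 in place of -0.0809. The call of Fcer2 was also lost without silica week 4 rat 3 or 4 (adjusted p = 0.0667 and 0.0783) and without silica week 0 rat 4 (0.0696). In air rats 4 T cell genes (list median -0.156), 1 NK gene (-0.0263) and 1 B cell gene (0.0356) were lower and none higher. For the NK and B cell lists, 1 of 16 is close to the 6.01% lower of all genes in air rats.

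Of 11 platelet genes 4 (36.4%) were lower and none higher. Pf4, platelet factor 4, read 14.1, 14.3 and 14.5 (lowest, median, highest) in silica week 4 rats and 14.5, 14.6 and 14.7 in silica week 0 rats, a change of -0.34 ± 0.08 (adjusted p = 0.00152) with no overlap. Clu, clusterin, changed by -0.49 ± 0.13 (adjusted p = 0.00212), F13a1, a subunit of coagulation factor XIII, by -0.59 ± 0.17 (0.00723), and Clec1b, an activating receptor of platelets, by -0.33 ± 0.12 (0.0389). Clec1b no longer passed in 9 of the 16 fits with 1 rat removed (adjusted p up to 0.0975). In air rats 4 of the 11 were lower and none higher (median -0.439), and Clec1b was not among the 4 (-0.41, adjusted p = 0.108). With median centring 1 platelet gene was called, while the list's median minus that of all genes was -0.225, against -0.247 in quantile-normalized values.

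Of 25 neutrophil genes 6 (24%) were lower and 1 higher, against 4 lower and none higher in air rats. S100a8, a calcium-binding protein abundant in neutrophils, changed by -0.48 ± 0.11 (adjusted p = 0.000341), and Ncf1, a subunit of the NADPH oxidase, by -0.34 ± 0.08 (0.000281). Camp, an antimicrobial peptide of neutrophil granules, rose by 0.44 ± 0.12 (adjusted p = 0.00218) with no overlap, at 7.34 ± 0.16 in week 4 rats and 6.89 ± 0.11 in week 0 rats (SD, n = 8 each). Of 2 measured primary granule genes none was called (lowest adjusted p 0.378). Of 16 monocyte genes 3 were lower (18.8%) and 1 higher (6.25%). Vcan, Cd68 and Lgals3 changed by -0.56, -0.43 and -0.23. Cd36, a fatty acid receptor also carried by other blood cells, rose by 0.34 ± 0.09 (adjusted p = 0.00182). Of 16 fits with 1 rat removed, 10 lost the call of Lgals3 (adjusted p up to 0.0935) and 4 that of Cd68: those without silica week 4 rats 4 and 6 and without silica week 0 rats 2 and 5 (up to 0.122). Of 13 eosinophil, basophil and mast cell genes 2 were higher (15.4%) and 2 lower (15.4%), and with median centring 0 were higher and 3 lower. The lower ones were Rnase2 (-0.70, adjusted p = 0.00299) and Siglec5 (-0.39 ± 0.12, adjusted p = 0.0119). Ccr3, the eotaxin receptor, rose by 0.49 ± 0.11 (adjusted p = 0.000303) without overlap. Cpa3, a mast cell protease, was called at 0.70 ± 0.27 (adjusted p = 0.0448), but only 4 of 8 week 4 arrays detected it, and rats 3, 5 and 7 stood at 7.92, 6.70 and 6.19 against at most 5.33 in the other week 4 rats. It no longer passed in 10 of the 16 fits with 1 rat removed, and the value was 0.389 without silica week 4 rat 3 (adjusted p = 0.272).

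Of 22 inflammatory mediators 6 were lower and 1 higher. Il1b, the cytokine interleukin-1 beta, changed by -0.48 ± 0.11 (adjusted p = 0.000651), and Nlrp3, the inflammasome sensor through which silica crystals are known to act in macrophages, read 6.74 ± 0.14 in silica week 4 rats and 7.23 ± 0.19 in week 0 rats (SD, n = 8 each), a change of -0.49 ± 0.12 (adjusted p = 0.000929) with no overlap. Casp4 changed by -0.35 ± 0.11 (adjusted p = 0.0136), and Cxcl1, a neutrophil chemokine, rose by 0.33 ± 0.10 (adjusted p = 0.0123). The Casp4 call was lost without silica week 0 rat 5 (adjusted p = 0.0622) and that of Cxcl1 without silica week 4 rat 7 (0.0571). In air rats Il1b was also lower (-0.50, adjusted p = 0.0251), while Nlrp3 read -0.34 (adjusted p = 0.171).

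RNA splicing genes were lower in 18 of 32 cases (56.2%) and higher in none, and all 32 had a negative difference, with a median of -0.211. Averaged within each rat, the list stood at 7.31 to 7.58 in silica week 4 rats and 7.62 to 7.86 in silica week 0 rats, with no overlap. Rbm39 changed by -0.44 ± 0.10 (adjusted p = 0.000481), Hnrnph1 by -0.40 ± 0.10 (0.000886), Tra2a, a regulator of exon choice, by -0.46 ± 0.11 (0.00116), and the kinase Clk4, which phosphorylates splicing factors, by -0.29 ± 0.07 (0.000997). Of this list 9 genes were lower without the 3 arrays of under 8500 detected rows and 8 with detected rows as a covariate. Lower calls over all 12289 genes went from 1691 to 1038 and 906 in these settings. The part of detected rows in the result was not tested. With the stock background estimate the list's median was -0.0548 with 18 genes lower, while that of all genes was -0.00302 in place of -0.0184. In air rats 8 of the 32 were lower and none higher (median -0.219).

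Of 16 glucocorticoid-responsive genes 7 (43.8%) were lower and none higher. Klf9, a transcription factor induced by glucocorticoids, changed by -0.37 ± 0.07 (adjusted p = 2.01e-05) with no overlap, at 9.03 ± 0.12 in silica week 4 rats and 9.41 ± 0.14 in week 0 rats (SD, n = 8 each). Txnip (-0.37 ± 0.08), the phosphatase Dusp1 (-0.41 ± 0.11) and the clock gene Per1 (-0.36 ± 0.115) were lower too, and in air rats Klf9 and Per1 were called lower (-0.37 and -0.66). With detected rows as a covariate 3 genes of this list were called, while lower calls over all genes went from 1691 to 906. Of 22 immediate early genes 6 were lower, led by Btg2 (-0.45 ± 0.07, adjusted p = 4.91e-08), and 2 were higher. Jund, a subunit of AP-1, was the higher one with the lowest p, at 14.3 ± 0.06 in week 4 rats and 13.6 ± 0.23 in week 0 rats (SD, n = 8 each), a rise of 0.73 ± 0.12 (adjusted p = 2.1e-06).

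Of 29 lysosome genes 11 were lower and 4 higher (median -0.167), against 3 lower and 3 higher in air rats (median 0.0275). The largest single changes in silica rats ran upward. Ctsd, cathepsin D, rose by 0.72 ± 0.09 (adjusted p = 5.24e-10) and Hexa, a beta-hexosaminidase subunit, by 0.55 ± 0.07 (8.25e-09), both without overlap, while Lamp2, a lysosomal membrane protein, changed by -0.49 ± 0.08 (2.55e-06). Of 66 cytosolic ribosomal protein genes 19 were lower and 8 higher, with Rps3 changed by -0.57 ± 0.08 (adjusted p = 7.05e-09); the list's median minus that of all genes was -0.0656, and 0.0588 with median centring. Of 60 mitochondrial ribosomal protein genes 10 were higher (16.7%) and 4 lower (6.67%), and of 35 constitutive proteasome genes 7 were higher (20%) and 7 lower (20%). For both lists the median fell below that of all genes with median centring. Of 27 glycolysis and hypoxia genes 9 were lower and none higher, led by Pgk1 (-0.38 ± 0.06, adjusted p = 4.47e-07) and Ldha (-0.40 ± 0.08, adjusted p = 8.95e-05), both without overlap. In air rats 4 of these genes were lower and none higher.

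In the oxidative stress and NRF2 list 4 of 26 genes were higher (15.4%) and 5 lower (19.2%), and 18 of the 26 differences were below 0. With median centring 0 genes of this list were called higher and 11 lower, so the rises named next lost their calls there. Gpx4, a phospholipid peroxidase, and Gclm, a subunit of the enzyme that starts glutathione synthesis, rose by 0.38 ± 0.06 and 0.33 ± 0.06 (adjusted p = 3.34e-07 and 1.86e-05), both without overlap. Of 24 chaperone genes 5 were lower and 1, Dnajb6, higher (0.55 ± 0.08, adjusted p = 3.34e-07). The unfolded protein response list had 3 lower (15%) and 2 higher (10%) of 20, shares close to those of all genes. Asns, asparagine synthetase, rose by 0.62 ± 0.11 (adjusted p = 3.05e-06). The apoptosis list had 7 lower and 2 higher of 23, led by Birc2, an inhibitor of apoptosis, at -0.50 ± 0.07 (adjusted p = 9.99e-08). The complement list had 3 lower (15%) and 1 higher (5%) of 20, and the circadian clock list 2 of each of 14 (14.3%). Their lower shares are close to the 13.8% of all genes. The matrix and TGF-beta list had 5 lower (21.7%) and 1 higher (4.35%) of 23. Fn1, fibronectin, changed by -0.50 ± 0.18 (adjusted p = 0.0297), and did not pass in 5 of the 16 fits with 1 rat removed (adjusted p up to 0.086).

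**Figure D4:**
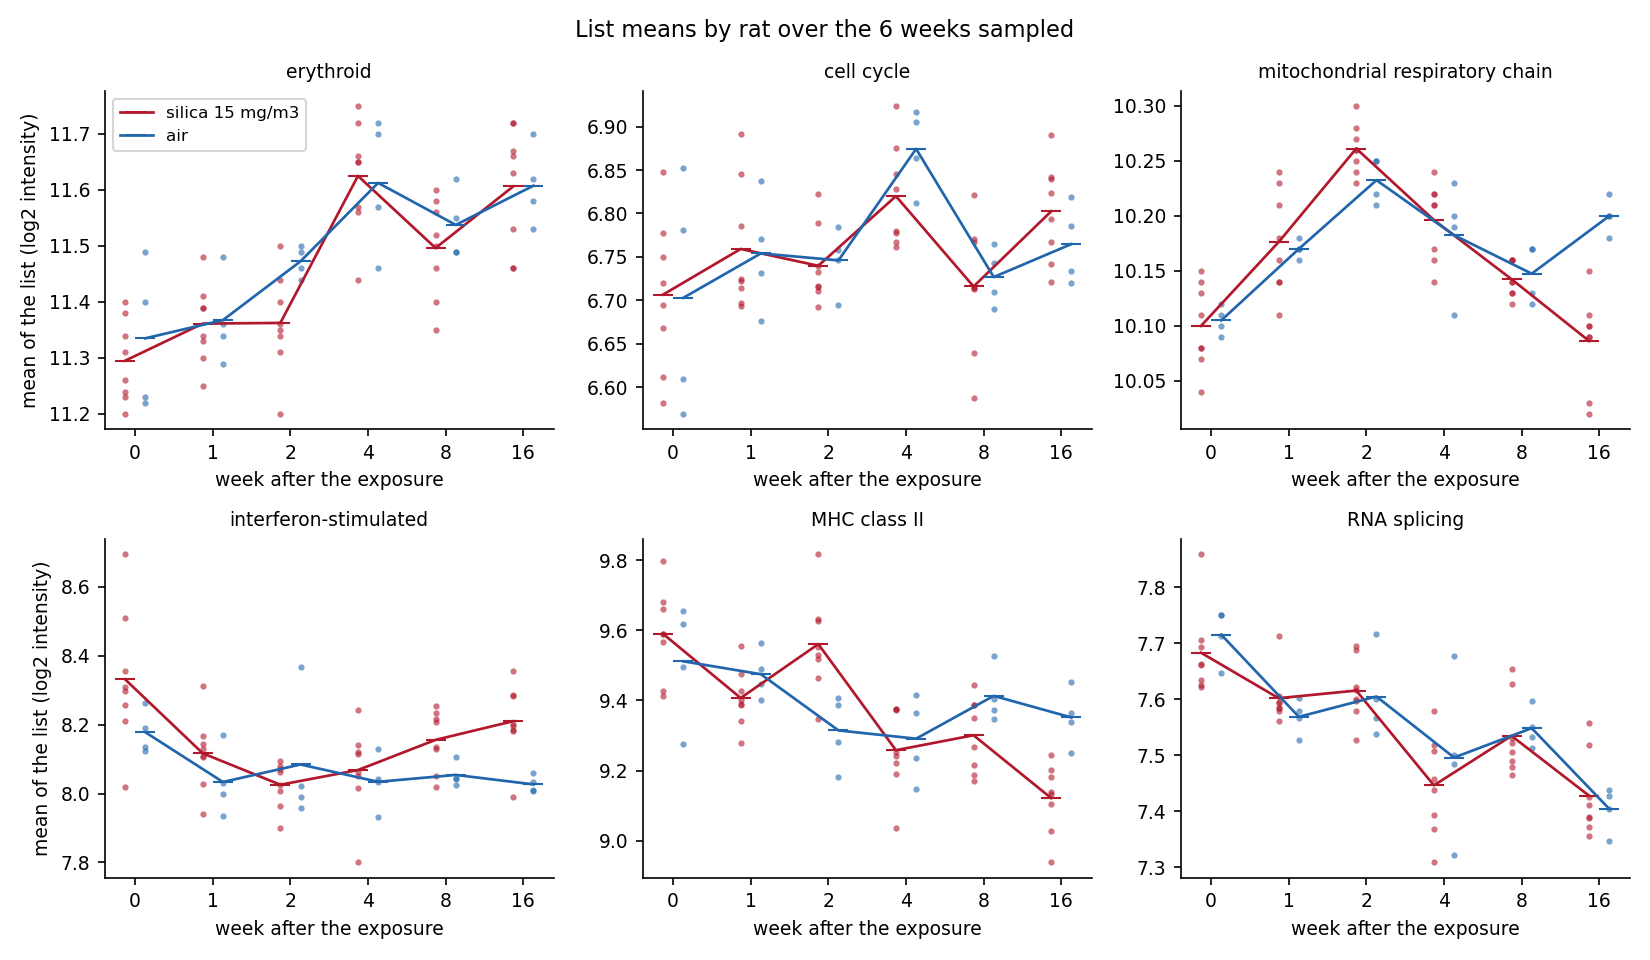
Mean log2 intensity of 6 gene lists in each rat (points) by week after the exposure, with lines joining the group means of silica rats (8 a week) and air rats (4 a week). Erythroid means are higher and MHC class II and RNA splicing means lower at week 4 than at week 0, in silica and in air rats.

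Week 4 was not the only week to differ from week 0 in silica rats. With the week 0 rats shared between them, the comparisons of weeks 1, 2, 4, 8 and 16 with week 0 called 1808, 1426, 3045, 1123 and 3051 genes, and those in air rats called 1591, 752, 1625, 412 and 2065. Week 4 silica rats set against the rats of weeks 1, 2, 8 and 16 gave 2899, 2649, 1467 and 930 called genes, so that week 16 differed from week 4 in the fewest. The erythroid list averaged 11.3, 11.4, 11.4, 11.6, 11.5 and 11.6 in silica rats over weeks 0, 1, 2, 4, 8 and 16. RNA splicing genes averaged 7.68, 7.60, 7.62, 7.45, 7.54 and 7.43. S100a11 did not run with them: its means were 12.3, 12.6, 12.5, 11.6, 12.3 and 12.1, with week 4 the lowest. Pf4 means were 14.6, 14.5, 14.4, 14.3, 14.5 and 14.3.

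**Figure D5:**
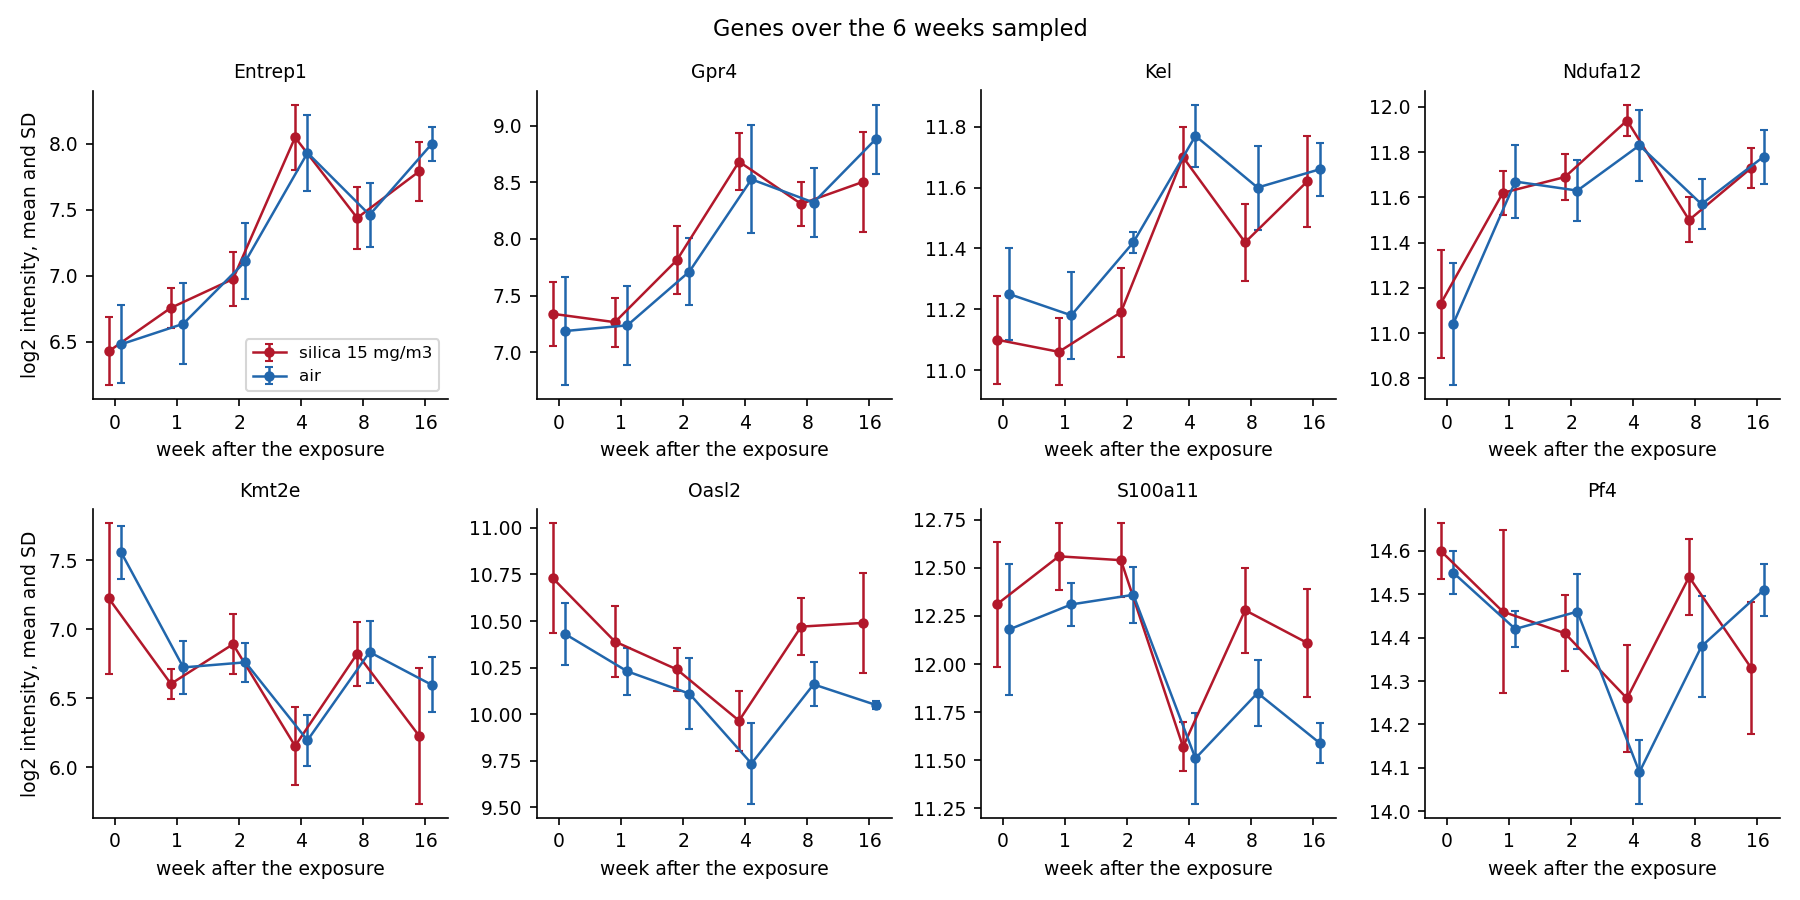
Mean log2 intensity with SD of 8 genes by week after the exposure in silica rats (8 a week) and air rats (4 a week). Entrep1 and Kel are highest and Kmt2e, Oasl2, S100a11 and Pf4 lowest at week 4 in silica rats, and the air means lie close to them at week 4 for Entrep1, Kmt2e and S100a11.

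The genes with the lowest p in the air comparison were also called in silica rats. Besides Entrep1 and RGD1564980_predicted they were Kpna1, a nuclear import receptor, Hbs1l, a translation factor that rescues stalled ribosomes, Slc16a1, a lactate transporter, and Edf1, a transcriptional coactivator. In silica rats Kpna1 rose by 0.87 ± 0.11 (adjusted p = 4.67e-10), Hbs1l by 0.80 ± 0.09 (6.59e-12), Slc16a1 by 0.70 ± 0.07 (2.7e-12) and Edf1 by 0.73 ± 0.08 (7.83e-12), each without overlap. In air rats they rose by 1.16, 0.92, 0.76 and 0.82. A single air rat of week 0 differed from all others in liver transcripts: Alb, serum albumin, stood at 11.2 in air week 0 rat 3 and at no more than 4.96 in the other air week 0 rats, 5.97 in silica week 4 rats and 5.42 in silica week 0 rats. Liver genes therefore enter the air comparison and the silica against air test through 1 rat, and none of them is described here as changed.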

How the data were processed

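Blood RNA of 96 rats in 16 groups was measured on Illumina bead arrays. Per the submitters' processing notes BeadStudio, limma and lumi were used, with no versions given in the sources used here. The deposited table gives an intensity and a detection p-value for each row and array, per the file headers, and the authors' deposited processed values are on a log2 scale. Each deposited column of these values correlated best with its own array for 96 of 96 arrays (lowest r 0.992, rows centred), with medians of 6.58 to 6.62, and they served as an alternative. Another 192 per-sample columns were not used.

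Intensities were background-corrected by normexp (limma 3.58.1, R 4.3.3) with the background inferred from the detection p-values, leaving out 626 rows off their grid, with an offset of 16, then quantile-normalized and taken to log2. Rows detected (p under 0.05) on at least 4 arrays were kept (12368 of 21792), and the row with the highest mean stood for each of 12289 genes. Symbols were updated through Entrez IDs for 16866 rows and through the file's symbol for 144, and 4782 kept the file's name. A linear model with 1 mean per group was fitted over all arrays, so that all groups share 1 estimate of the spread. Contrasts were week 4 minus week 0 in silica rats, in air rats, and their difference, with limma's moderated test and Benjamini-Hochberg adjustment. P-values measure the spread between rats. The fit was also run on simulated data with independent noise for every gene and array. That noise holds no deviation shared within a column run, so it does not test the p-values under such sharing.

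The members and the 31 gene lists (979 symbols, 770 measured) were chosen with earlier results of these data known, so they are no independent support. The text names the 12 largest rises and 12 largest falls among called genes detected on at least 4 arrays of the brighter group, up to 4 list members with the lowest p, and the 6 genes with the lowest p in the air and silica against air tests, and any other gene was named after its values were seen. A few genes that the rule picks are not reported here. Alternatives were the background, normalization, filter, samples fitted, column runs, replicate block, detected rows, array weights and leaving out each rat, and detected rows were also compared within column runs. Figures were drawn with matplotlib 3.10.9.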

Additional observations from a re-analysis of the deposited data

Results flagged for a closer look

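Within groups of 4 or 8 rats, 248 sets of values were examined for a rat far from the others, and 18 stood out by Dixon's criterion, where chance gives about 1 in 20, or 12.4. Among single genes, LOC499823 stood at 7.47 in silica week 4 rat 3, Dctpp1 at 8.63 in silica week 0 rat 8, Mx2 at 7.62 in silica week 0 rat 2 and RT1-CE11 at 4.94 in silica week 0 rat 4. In air week 0 rats, RGD1564980_predicted stood at 9.57 in rat 2, Kifap3 at 8.58 in rat 2 and LOC500160 at 5.89 in rat 3.

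Among list means, silica week 4 rats stood apart for the complement list (rat 3, 6.81), the cytosolic ribosomal protein list (rat 2, 12.4), the immediate early list (rat 4, 7.82) and the oxidative stress and NRF2 list (rat 5, 10.6). Silica week 0 rats did so for the NK and cytotoxic list (rat 5, 8.94), the RNA splicing list (rat 6, 7.86) and the apoptosis list (rat 2, 7.28). Air week 4 rats did so for the chaperone list (rat 1, 8.01) and the complement list (rat 2, 6.23), and air week 0 rat 3 for the complement list (6.95) and the neutrophil list (8.01).

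RT1-CE11 differed between silica and air rats in its week 4 minus week 0 change, by -0.592 (limma adjusted p = 0.0366, n = 8 and 4 rats a week), at levels near the detection limit in silica rats.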

How the results depend on the processing

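Besides leaving out each rat, 16 settings were tried, 2 of them added after seeing the data. The 24 genes with the largest changes kept their direction under all 16, and lost their call in 9 cases with column runs 1 to 4 only, 2 with runs 5 to 8 only, and 1 (LOC500160) each with only the arrays compared and without the 3 arrays of under 8500 detected rows. The silica counts of 1354 higher and 1691 lower were 278 and 2839 with median centring, 493 and 236 with runs 1 to 4 and 626 and 459 with runs 5 to 8, which have fewer rats, and 906 lower with detected rows as a covariate and 1038 lower without those 3 arrays, for which the cause was not tested. Leaving out single rats gave 1161 to 1404 higher and 1291 to 1803 lower. The air counts of 887 and 738 were 10 and 14 with median centring, 164 and 109 with only the arrays compared (the same arrays as runs 1 to 4), 519 and 277 with detected rows, 479 and 292 with array weights, 537 and 319 without the 3 arrays, and 521 to 1048 and 308 to 925 without single rats. Arrays of the same replicate number had r of -0.251 to 0.229 in silica (above 0.1 for 6 of 8) and -0.0332 to 0.159 in air (3 of 4). Silica numbers 5, 7 and 8 stood in different column runs at the 2 weeks and had r of -0.213, 0.131 and -0.251. The other same-number pairs, in silica and in air, also shared a run, so number and run cannot be told apart in them. The replicate block gave 1161 and 1296 in silica, 137 and 56 in air and 0 in the silica against air test. The silica against air test called 0 lower genes in place of 1 with the stock or no background correction, median centring, the authors' deposited values, only the arrays compared, runs 1 to 4, array weights and without the 3 arrays, and 0 to 6 without single rats (6 without air week 4 rat 3, 4 without air week 4 rat 2). Among the genes named, those that turned direction were Fcer2 (0.0053) and Derl3 (0.0212) in runs 5 to 8 and Jchain (0.12) in runs 1 to 4. List medians minus that of all genes moved with median centring to -0.326 for neutrophil and for RNA splicing, 0.074 for primary granule, -0.222 for B cell, -0.269 for inflammatory, -0.459 for MHC class II, -0.231 for immediate early, -0.142 for chaperone, -0.246 for NRF2 and for apoptosis, 0.0285 for circadian, -0.217 for matrix, -0.229 for lysosome, 0.0588 for cytosolic ribosomal, -0.00892 for respiratory chain, -0.112 for mitochondrial ribosomal, -0.0804 for proteasome, -0.202 for glycolysis and -0.174 for unfolded protein response genes. With the authors' values they moved to -0.0677 for inflammatory, -0.0464 for MHC class I, -0.0215 for immediate early, -0.0952 for lysosome and -0.0608 for unfolded protein response genes. Genes near background, such as Cxcl10 and RT1-CE11, are limited by signal.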
